A study of Mus musculus with 31 samples.

Results

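Solute carriers are the membrane proteins that move amino acids, sugars, metals, nucleosides, ions and metabolites across the plasma membrane and the membranes of organelles. Their transcripts were followed in mouse bone marrow macrophages during the first response to endotoxin or to live bacteria, with and without the adaptor protein MyD88. Members were every array probe whose single gene symbol begins with Slc or Slco followed by the number of its carrier family. They were 181 of 10600 genes named on the array, in 47 families, read by 196 of 13872 probes, with the Slco transporters (10 probes) counted as 1 family. The rule used no measured value. The symbol rule also took in 4 genes that are not carriers by their names or known products: Slc4a1ap, an adaptor, Slc9a3r2, a scaffold that binds an exchanger, Slc6a19os, an opposite-strand transcript, and Slc39a1-ps, a pseudogene. None of their probes met the filter for testing.

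Marrow came from wild-type C57BL/6J mice and from MyD88-deficient mice (MyD88-/- in the sample titles), all 6 to 8 weeks old, and was grown for 8 days with medium conditioned by L929 cells, which supplies the macrophage growth factor CSF-1. The labels say no more about how the deficient line was made. Each culture then received, for 2 hours, either LPS (re-purified, from E. coli O111) at 10 ng/mL, or live E. coli in log phase at 1 bacterium per macrophage, and its RNA was hybridised together with RNA of cells of that mouse given medium alone (mock). This gave 4 groups of 4 mice each, LPS in wild-type, LPS in MyD88-/-, then E. coli in wild-type and in MyD88-/- mice. Each mouse and stimulus had 2 arrays of opposite dye, except MyD88-/- LPS mouse 4 with 1 unswapped array, which makes 31 arrays. The 2 arrays of a mouse were averaged and counted once. A mean of the swapped MyD88-/- LPS arrays therefore lacks mouse 4. Mice are numbered within each group, and the labels do not settle whether LPS and E. coli cultures of 1 number came from 1 mouse or share mock RNA, so the values for both stimuli are set side by side and were not correlated.

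Macrophages meet LPS through the receptor TLR4, which signals by a MyD88 arm and by a second adaptor arm that works without MyD88. Activated macrophages are known to take up more arginine, cystine and glucose, to withhold iron from microbes and to change how zinc is shared between compartments, and carriers of the solute carrier families are the doors for each of these. Many others in these families serve kidney, liver, gut or brain and are scarcely made in macrophages.

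All values are log2 ratios of stimulated over mock cells, so 1 means 2-fold more RNA and -1 2-fold less against mock. The ratio's direction is not stated and is the likely one: the 3 textbook LPS-induced genes checked were all called higher in all 4 responses, and all 15 pairs of arrays of opposite dye correlated above 0 (r = 0.256 to 0.71 over all probes, 0.0987 to 0.721 over the members). A ratio says nothing of a gene's level, so members are compared by change alone. An array held 5356 to 10395 values, and a probe was tested where at least 3 mice of every group had one, which 7325 probes (52.8%) and 91 member probes (46.4%) did. Those 91 probes stand for 90 genes of 33 families. Of the other 105, 73 had 3 mice in at least 1 group and 32 in none. A member is said to have risen or fallen where limma's moderated test gave an adjusted p (Benjamini-Hochberg over all 7325 probes) under 0.05. The ± is the standard error of the fitted mean of the 4 mice, or of 3 where only 3 values are listed. It rests on 1 spread per probe, shared by all 4 groups and moderated across probes, not on the listed mice alone. Leaving out a mouse of 1 group can therefore change a call in another. The probe for Myd88 had a value on all 31 arrays and ratios of 1.38 ± 0.42, 2.16 ± 0.42, 1.48 ± 0.42 and 1.29 ± 0.42 across the 4 groups, listed in that order; because the mock cells carry the same deficiency, such a ratio cannot show whether the gene is lost. Macrophage markers had values on a median of 31 arrays, against 7 for T cell, 16.5 for B cell, 14.5 for neutrophil, 17.5 for erythroid and 10 for stromal markers. In such bulk RNA, fewer cells of a kind and less RNA per cell cannot be told apart.

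In at least 1 response 17 solute carriers rose (18.7% of the 91 tested, against 12.6% of all 7325 probes) and 18 fell (19.8%, against 15.9%), 0 did both, and 56 passed the test in none; together 38.5% were called, against 28.4% of all probes. Wild-type cells given LPS had 19 of 91 members called (20.9%, against 17% of all probes tested), 8 higher (7.99% of all probes were called higher) and 11 lower (9.04%). MyD88-/- cells given LPS had 14 (15.4%, against 9.98%), 8 higher (5.28%) and 6 lower (4.7%). Wild-type cells given E. coli had 24 (26.4%, against 21.2%), 13 higher (9.43%) and 11 lower (11.8%), and MyD88-/- cells 12 (13.2%, against 10.8%), 8 higher (6.35%) and 4 lower (4.42%). The members' share was thus a little above that of all probes in each response, and no test was made of that gap. Their median change lay near 0, from -0.074 to -0.041, as it did over all probes (-0.057 to -0.048). The median size of change was 0.41, 0.31, 0.38 and 0.30 among members and 0.28, 0.23, 0.30 and 0.23 over all probes. In all 4 responses 7 members passed, 7.69% of those tested against 5.94% of all probes. Slc25a37, Slc7a2 and Slc2a1 rose in each, and Slc29a3, Slc37a2, Slc3a2 and Slc39a5 fell in each. A further 19 members passed in 1 response alone (20.9%, against 12.5%).

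**Figure D1:**
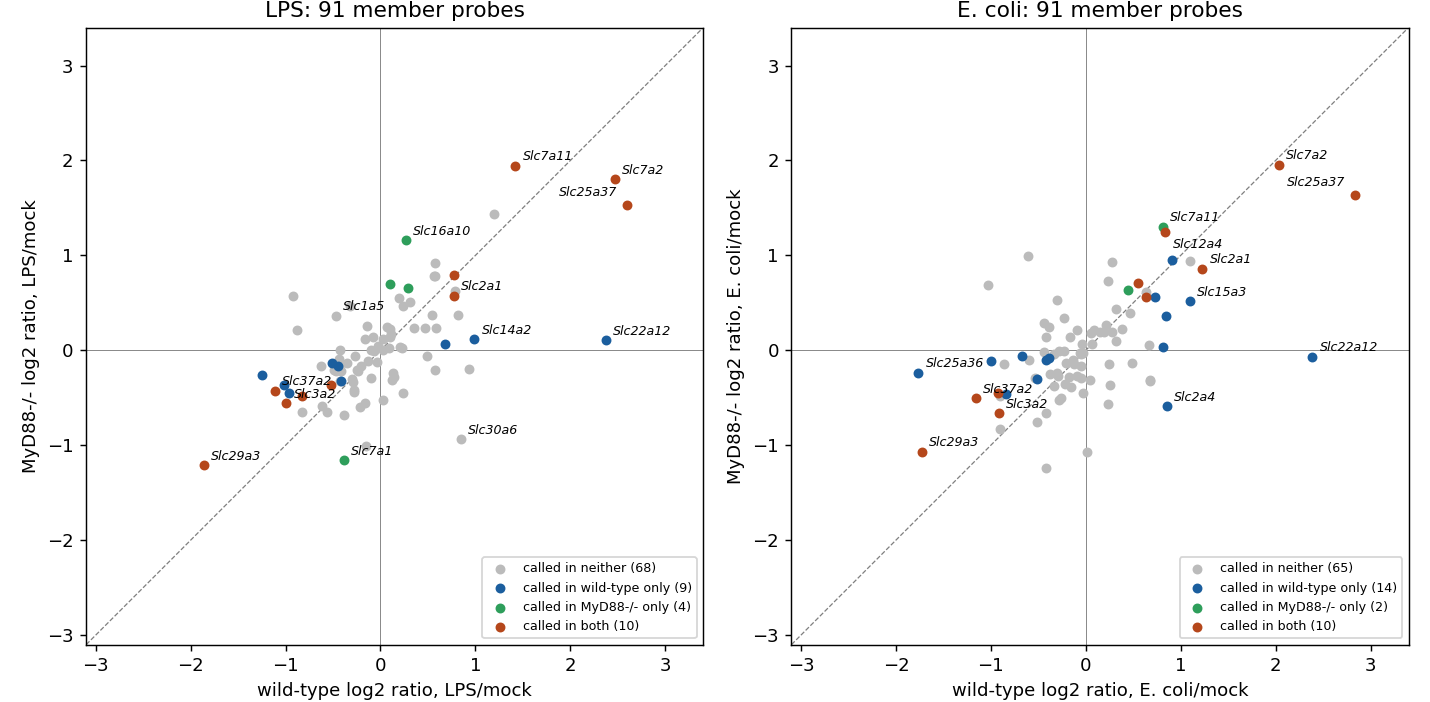
Fitted log2 ratio of the 91 tested member probes in wild-type (x axis) against MyD88-/- cells (y axis), for LPS (left) and E. coli (right), coloured by where the member was called; the dashed line marks equal change. With LPS 10 members were called in both genotypes, 9 in wild-type alone and 4 in MyD88-/- alone, and with E. coli 10, 14 and 2. This split was not counted over all probes. Of those, 17% of wild-type and 9.98% of MyD88-/- responses were called with LPS, and 21.2% and 10.8% with E. coli. The largest rises (Slc25a37, Slc7a2, Slc22a12) and falls (Slc29a3) lie far from the cloud near 0.

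Which carriers could be measured differed by role. Roles were assigned by family number, not gene by gene. Slc16a10, which carries aromatic amino acids, is thus counted with the monocarboxylate carriers, and Slc25a17 of the peroxisome with the mitochondrial carriers. Mitochondrial carriers (18 of 24 probes tested), metal transporters (14 of 21) and transporters of nucleosides and nucleotide sugars (6 of 9) were mostly measurable. Amino acid transporters (15 of 39), ion exchangers (11 of 27), carriers of vitamins, organic ions and bile acids (11 of 36), monocarboxylate carriers (2 of 8) and the Slco family (2 of 10) mostly were not. Beside the 28.4% of all probes called in at least 1 response, such calls were made for 6 of 15 amino acid transporters, 4 of 6 sugar transporters, 7 of 14 metal transporters and 8 of 18 mitochondrial carriers, but for 1 of 11 ion exchangers, 2 of 11 carriers of vitamins and organic ions and 0 of 3 fatty acid transport proteins (Slc27a1, Slc27a4 and Slc27a5). Directions were mixed within roles: amino acids 3 higher and 3 lower, metals 3 and 4, sugars 3 and 1, mitochondria 2 and 6.

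**Figure D2:**
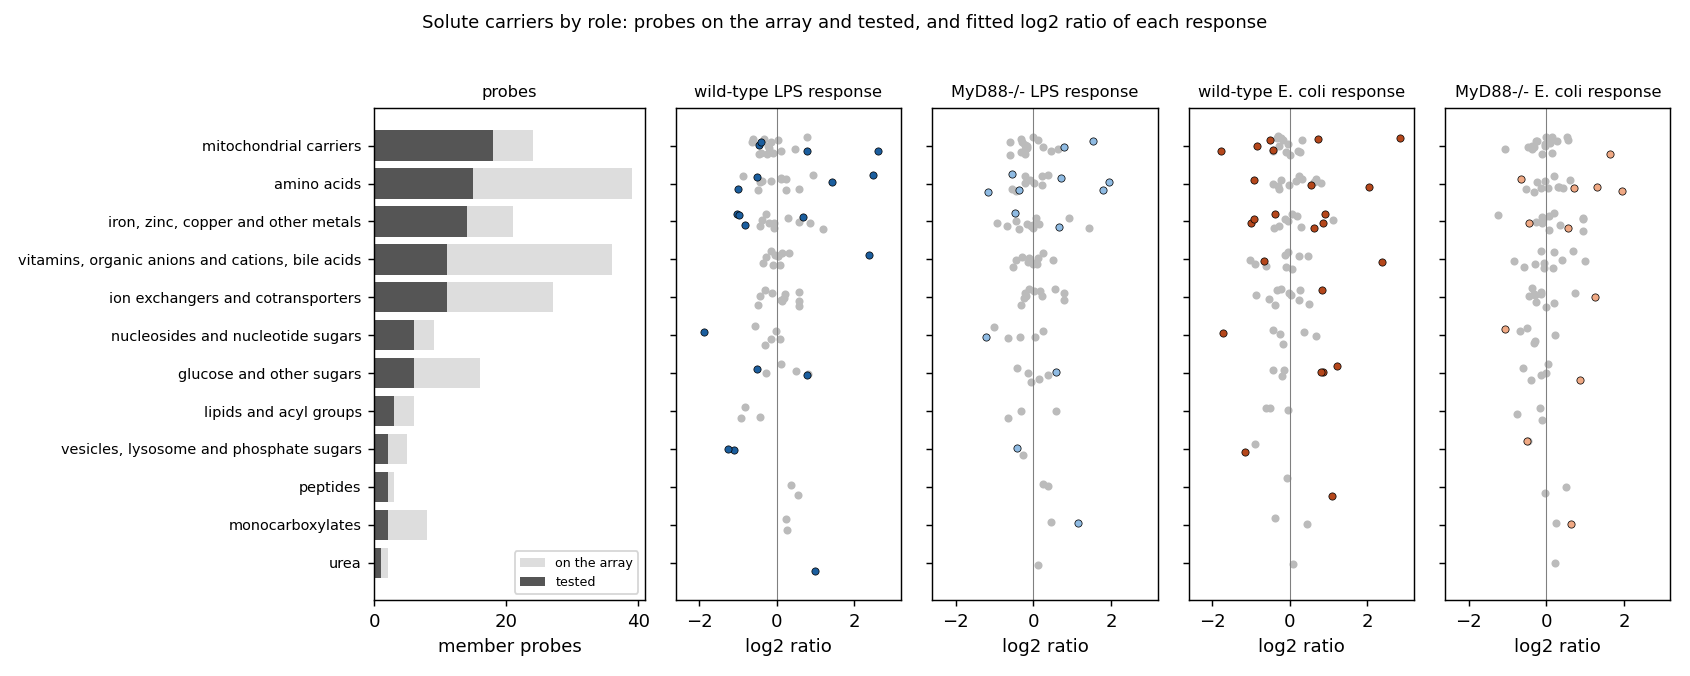
Member probes on the array and tested, by role (left), and the fitted log2 ratio of each tested member in the 4 responses; coloured points were called and grey points were not, with points shifted vertically at random for display. Of 39 amino acid probes 15 were tested against 18 of 24 mitochondrial ones, and called points lie on both sides of 0 in the larger roles.

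The sequence before the transcription start was looked up for the called members, because members that move together can be set beside the binding motifs of factors known in this response. RefSeq promoter windows (build GRCm38.p6, 250 bases before to 50 after each start) were found for 143 of 181 member genes, with 192 windows. A loose NF-kB-like motif, GGG and CC with 5 bases of any kind between them on either strand, lay in 11 of 11 windows of the members that rose (11 of the 17 genes have a window) and in 14 of 22 windows of the members that fell (63.6%), against 50.8% of all 32851 windows and 56.8% of member windows; it is rich in G and C and common everywhere. The AP-1 motif TGANTCA lay in 7.81% of all windows and in 0 of 11 and 2 of 22, the composite motif TGATGNAA, read by ATF4 with a C/EBP partner, in 3.97% and in 1 of 11 and 1 of 22, and the interferon response motif, a repeat of GAAA after 2 bases of any kind, in 3.44% and in 0 of 11 and 0 of 22. The metal response motif TGCNCNC lay in 51% of all windows, 7 of 11 and 11 of 22. A match describes the letters only and is not a site shown to be used. Promoter windows of 3 members are shown without the 50 bases after the start, from the minus strand, 5′ to 3′, with matches of the first 4 motifs in capitals: Slc7a11 (chr3:50443614-50443863), which rose and holds the composite motif on both strands, Slc37a2 (chr9:37255739-37255988), which fell and holds an AP-1 match, and Slc29a3 (chr10:60752783-60753032), which fell in all 4 responses and holds NF-kB-like matches.
Slc7a11: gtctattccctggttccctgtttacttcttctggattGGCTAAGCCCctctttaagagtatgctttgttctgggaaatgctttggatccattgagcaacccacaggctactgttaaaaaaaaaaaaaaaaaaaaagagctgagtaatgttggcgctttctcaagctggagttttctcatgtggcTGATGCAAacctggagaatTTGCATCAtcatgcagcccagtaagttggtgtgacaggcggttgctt
Slc37a2: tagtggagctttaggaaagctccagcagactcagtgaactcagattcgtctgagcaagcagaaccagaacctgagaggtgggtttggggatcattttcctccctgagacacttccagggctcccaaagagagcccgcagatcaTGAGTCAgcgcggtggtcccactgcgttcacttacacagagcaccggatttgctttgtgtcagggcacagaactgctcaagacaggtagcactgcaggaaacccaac
Slc29a3: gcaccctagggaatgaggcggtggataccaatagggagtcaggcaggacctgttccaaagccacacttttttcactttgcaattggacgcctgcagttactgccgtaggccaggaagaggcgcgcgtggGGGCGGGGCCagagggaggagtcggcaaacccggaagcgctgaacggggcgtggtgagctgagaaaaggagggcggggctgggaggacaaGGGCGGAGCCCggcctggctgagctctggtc

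Amino acid transporters moved in both directions, and in wild-type cells the largest change belonged to the arginine importer. Slc7a2 (probe 13616) encodes a cationic amino acid transporter known to feed arginine to activated macrophages. Its ratios were 2.82, 2.20, 1.89 and 2.98 in the 4 wild-type LPS mice and 1.56, 2.31, 0.072 and 3.28 in the MyD88-/- LPS mice. With E. coli they were 2.43, 2.27, 1.38 and 2.06 in wild-type and 2.07, 0.87, 3.58 and 1.30 in MyD88-/- mice. All 16 values lay above 0, the genotypes overlapped with both stimuli, and the MyD88-/- mice spread widely. The means were 2.47 ± 0.44 (adjusted p = 0.000996), 1.80 ± 0.44 (0.0144), 2.04 ± 0.44 (0.00366) and 1.96 ± 0.44 (0.00782), and the genotype differences were -0.67 ± 0.62 with LPS and -0.08 ± 0.62 with E. coli. The MyD88-/- LPS call ended without MyD88-/- LPS mouse 2 (0.0721) and mouse 4 (0.117), and the MyD88-/- E. coli call without MyD88-/- E. coli mouse 3 (0.0699); numbers in brackets are the adjusted p then. The related transporter Slc7a1 (probe 11608), the housekeeping arginine carrier, had other values: it fell in MyD88-/- LPS cells to -1.16 ± 0.30 (adjusted p = 0.0255; mice -1.75, -0.65 and -1.08) and had -0.39, -0.23 and 0.34 elsewhere, none called. That call ended without MyD88-/- LPS mouse 1 (0.221) and mouse 3 (0.0928).

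The cystine exchanger and its heavy chain went opposite ways. Slc7a11 (probe 11087) is the light subunit that exchanges cystine for glutamate and so supplies glutathione synthesis, and Slc3a2 (probe 4939) is the heavy chain that carries it, and several other light subunits, to the membrane. Slc7a11 ratios were 0.96, 1.81, 1.97 and 0.93 in wild-type LPS mice and 1.17, 1.59, 1.15 and 3.88 in MyD88-/- LPS mice. With E. coli they were 1.41, 0.42 and 0.61 in the 3 wild-type mice with a value and 1.15, 1.16, 1.09 and 1.81 in MyD88-/- mice. Every mouse was above 0, and MyD88-/- LPS mouse 4 was far above the rest. That mouse has 1 unswapped array and no dye swap, so it is absent from the mean of swapped arrays. Slc7a11 rose by 1.42 ± 0.36 (adjusted p = 0.0139), 1.95 ± 0.36 (0.00243) and, in MyD88-/- E. coli cells, 1.30 ± 0.36 (0.0317), while its wild-type E. coli mean of 0.81 ± 0.42 did not pass (0.195), and was 0.52 without wild-type mouse 2. The wild-type LPS call ended without wild-type LPS mouse 2 (0.07) and mouse 3 (0.0714) and the MyD88-/- E. coli call without any of its 4 mice (0.0723 to 0.146), and the wild-type E. coli mean passed without MyD88-/- LPS mouse 4 (0.0296). On swapped arrays alone the MyD88-/- LPS mean was 1.26 (0.0836). Slc3a2 had -0.87, -0.90, -1.28 and -0.92 in wild-type LPS mice and -0.39, -0.78, -0.29 and -0.78 in MyD88-/- LPS mice, and, with E. coli, -1.04, -0.69, -1.07 and -0.87 in wild-type and -0.48, -0.43, -0.89 and -0.85 in MyD88-/- mice. All 16 values were below 0, and with LPS every MyD88-/- value lay above every wild-type value. The means were -0.99 ± 0.13 (adjusted p = 5.36e-05), -0.56 ± 0.13 (0.00942), -0.92 ± 0.13 (9.16e-05) and -0.66 ± 0.13 (0.00256); the MyD88-/- LPS call ended without MyD88-/- LPS mouse 2 (0.0607) and mouse 4 (0.068).

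Among the other partners of Slc3a2, Slc7a8 (probe 10781), a neutral amino acid exchanger, rose in MyD88-/- cells with LPS (0.70 ± 0.18, adjusted p = 0.0197), in wild-type cells with E. coli (0.55 ± 0.18, 0.0396) and in MyD88-/- cells with E. coli (0.71 ± 0.18, 0.0169), and had 0.097 ± 0.18 in wild-type cells with LPS. Each of its 3 calls ended without 1 mouse: MyD88-/- LPS mouse 1 (0.0897) and mouse 4 (0.154), wild-type E. coli mouse 1 (0.138), mouse 2 (0.122) and mouse 4 (0.158) or MyD88-/- E. coli mouse 3 (0.0509), and, for the last, any of the 4 MyD88-/- E. coli mice (0.0512 to 0.0696). The MyD88-/- LPS mean was 0.11 on the dye-swapped arrays alone (0.887) and 0.97 on the unswapped ones. The swapped arrays lack MyD88-/- LPS mouse 4, so these means differ in mice as well as in dye. Slc43a1 (probe 9416), a carrier of large neutral amino acids, fell in wild-type cells with LPS (-0.54, -0.48, -0.43 and -0.63, mean -0.52 ± 0.11, adjusted p = 0.00354); this was -0.79 on unswapped arrays and -0.25 on swapped arrays, where the call ended (0.342). Its smaller MyD88-/- LPS value of -0.36 ± 0.11 (0.0475) lost the call without any 1 of 14 of the 16 mice (0.0548 to 0.23), the exceptions being MyD88-/- mouse 4 and wild-type mouse 1 of the E. coli groups, and was -0.15 on swapped arrays (0.807). Slc1a5 (probe 9542), the glutamine importer, passed in no response, yet its LPS values lay apart: -0.56, -0.14, -1.02 and -0.17 in wild-type and 0.14, 0.42, -0.053 and 0.97 in MyD88-/- mice, a genotype difference of 0.84 ± 0.25 (adjusted p = 0.282). With E. coli its means were -0.026 and -0.031. Slc38a4 (probe 11840), another neutral amino acid transporter, had means of -0.88 ± 0.50, 0.22 ± 0.50, 0.67 ± 0.50 and 0.055 ± 0.50 from 3 mice each, none called; without mouse 3 of the group the first was -0.33 and the third 0.42. The large neutral amino acid transporter Slc7a5 had values on 7 arrays, Slc7a7 on 10 and Slc6a9 on 15, and none was tested.

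Among 15 tested enzymes and regulators of arginine and amino acid metabolism, 3 rose and 7 fell in wild-type cells with either stimulus, and 1 rose and 3 fell in MyD88-/- cells with either. The genes that follow were chosen after their values were seen. Arg2, which splits arginine, rose in wild-type cells (2.38 ± 0.60 with LPS, adjusted p = 0.0134; 2.36 ± 0.60 with E. coli, 0.0115), and Odc1, which makes polyamines from its product, rose in all 4 responses by 0.99 to 1.17. The amino acid stress regulators Atf4 (-0.99 ± 0.15 and -0.53 ± 0.15 with LPS), Chac1 (-1.51 ± 0.19 and -1.34 ± 0.19) and Ddit3 (-2.01 ± 0.17 and -1.73 ± 0.17) fell in all 4 responses. Slc7a11, whose window above holds the composite motif, and Slc3a2 are both known targets of Atf4, and their ratios had opposite signs. Whether Atf4 acted on either gene in these cells was not tested.

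Of the glucose carriers, the basal transporter rose in every group. Slc2a1 (probe 1813), GLUT1, supplies glucose to most cells at rest and on activation. Its ratios were 1.27, 0.58, 0.65 and 0.58 in wild-type LPS and 0.77, 0.56, 0.66 and 0.31 in MyD88-/- LPS mice, and, with E. coli, 1.49, 1.32, 1.005 and 1.09 in wild-type and 1.16, 1.12, 0.60 and 0.55 in MyD88-/- mice. All 16 were above 0, the genotypes overlapped with both stimuli, and wild-type LPS mouse 1 stood above its 3 fellows. The means were 0.77 ± 0.15 (adjusted p = 0.00191), 0.58 ± 0.15 (0.0206), 1.23 ± 0.15 (2.42e-05) and 0.86 ± 0.15 (0.00103); the second call ended without MyD88-/- LPS mouse 1 (0.111), mouse 2 (0.0637) and mouse 3 (0.088). Slc2a3 (probe 4653), the high-affinity GLUT3, did not pass anywhere (-0.28 ± 0.19, -0.42 ± 0.19, -0.16 ± 0.19 and -0.39 ± 0.19; the second was -0.16 without mouse 2 of that group). Slc2a4 (probe 923), the insulin-responsive GLUT4, rose in wild-type cells with E. coli (1.21, 0.21, 1.39 and 0.59; mean 0.85 ± 0.28, adjusted p = 0.042), whereas the MyD88-/- mice had -1.06, 0.67, -0.85 and -1.12. Without MyD88-/- mouse 2, the only one above 0, its MyD88-/- mean was -1.01 (adjusted p = 0.0218) and the genotype difference -1.86 (0.018), against -1.44 ± 0.40 (0.111) with all mice; its wild-type LPS mean of 0.81 ± 0.28 also passed then (0.0179), and was 0.53 without wild-type LPS mouse 1. The dyes gave Slc2a4 opposite signs with E. coli: -0.41 on 3 unswapped arrays (-0.64 to -0.19) and 1.96 on 4 swapped arrays (0.21 to 3.42) in wild-type cells, and -1.41 and 0.23 on 4 arrays each in MyD88-/- cells, so its direction is not settled by these arrays. The wild-type E. coli call of Slc2a4 ended without any 1 of 7 mice (0.0504 to 0.179), namely wild-type LPS mouse 2, MyD88-/- LPS mice 1 and 3, MyD88-/- E. coli mouse 3 and 3 of its own group (1, 3 and 4). Chosen after their values were seen, Slc2a5 (probe 4143), the fructose transporter, rose in wild-type cells with E. coli (0.82 ± 0.16, adjusted p = 0.0022; MyD88-/- 0.036 ± 0.16), and Slc50a1, a sugar carrier, fell in wild-type cells with LPS (-0.51 ± 0.15, 0.034). In the same cells Hk2, the hexokinase that traps imported glucose, rose by 1.67 ± 0.16, 1.21 ± 0.16, 1.96 ± 0.16 and 1.53 ± 0.16; of 10 tested glucose-use genes 2 rose and 2 fell with LPS and 1 rose and 2 fell with E. coli in wild-type cells, and 1 rose and 0 fell in MyD88-/- cells with either.

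Of the iron transporters outside mitochondria, 1 on endosomes passed the test and its relatives of the phagosome and plasma membrane did not. Slc11a2 (probe 8683), DMT1, which brings ferrous iron out of endosomes, rose in wild-type cells. Its LPS values were 0.54, 0.51, 0.72 and 0.98 in wild-type and 0.085, -0.21, 0.013 and 0.36 in MyD88-/- mice, and its E. coli values 0.65, 0.78, 0.76 and 1.21 in wild-type and 0.12, 0.095, 0.53 and 0.69 in MyD88-/- mice. The genotypes did not overlap with LPS and overlapped with E. coli. The wild-type means were 0.68 ± 0.14 (adjusted p = 0.00282) and 0.85 ± 0.14 (0.00039), the MyD88-/- means 0.063 ± 0.14 and 0.36 ± 0.14, and the genotype differences -0.62 ± 0.20 (0.333) and -0.49 ± 0.20 (0.284), neither called. On the dye-swapped arrays alone the wild-type LPS mean was 0.34 and did not pass (0.373). Its phagosomal relative Slc11a1 (probe 8402), Nramp1, which guards against intracellular microbes, stayed between -0.074 and 0.20 in the 4 means and did not pass. The iron exporter ferroportin, Slc40a1 (probe 10832), had -0.38 ± 0.44, -0.68 ± 0.51, -0.41 ± 0.44 and -1.24 ± 0.44 with wide spreads, and passed, in MyD88-/- E. coli cells, when wild-type E. coli mouse 4 was left out (0.0324) or with a dye term (0.0234). Without 1 mouse of the group, the MyD88-/- LPS mean ran from -1.08 to -0.12 and the wild-type E. coli mean from -1.06 to -0.12.

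Zinc transporters moved both ways: families 30 and 39 each had 5 tested probes, of which 1 rose and 2 fell in at least 1 response. Over all probes tested, 12.6% rose and 15.9% fell in at least 1 response. Slc39a5 (probe 11432) imports zinc into the cytosol, and Slc30a1 (probe 2075) exports it at the plasma membrane. Slc39a5 had -0.72, -0.90, -0.67 and -1.04 in wild-type LPS and -0.35, -0.45, -0.64 and -0.47 in MyD88-/- LPS mice, and, with E. coli, -1.13, -0.83, -1.05 and -0.67 in wild-type and -0.51, -0.54, -0.43 and -0.33 in MyD88-/- mice. All 16 were below 0, and with either stimulus every wild-type value lay below every MyD88-/- value. The means were -0.83 ± 0.11 (adjusted p = 5.57e-05), -0.48 ± 0.11 (0.00867), -0.92 ± 0.11 (1.66e-05) and -0.45 ± 0.11 (0.0118), and the genotype differences 0.35 ± 0.15 (0.514) and 0.47 ± 0.15 (0.182). The MyD88-/- calls ended without MyD88-/- LPS mouse 3 (0.0608) and MyD88-/- E. coli mouse 2 (0.0663). A second Slc39a5 probe, 10368, had values on 10 arrays and did not meet the filter. In 3 wild-type mice each it had -0.53 ± 0.37 with LPS and, with the other sign, 0.67 ± 0.37 with E. coli. Slc30a1 fell in wild-type cells, with LPS (-0.79, -0.80, -1.79 and -0.68; -1.01 ± 0.23, adjusted p = 0.00569) and with E. coli (-1.07, -0.73, -1.51 and -0.68; -0.998 ± 0.23, 0.00529). The MyD88-/- mice had 0.18, -0.66, -0.63 and -0.35 with LPS and 0.09, 0.51, -0.21 and -0.84 with E. coli, apart from wild-type with LPS but not with E. coli. Slc30a5 (probe 1248), a zinc carrier of the secretory pathway, was called lower in wild-type cells with LPS at -0.97 ± 0.29 (0.034), with mice at -0.55, -2.62, -0.23 and -0.47; mouse 2 is the mean of an unswapped array at -5.23 and its dye swap at -0.015. Without mouse 2 the mean was -0.41 (0.194), and without mouse 1 the call ended too (0.0501), as it did on swapped arrays alone (-0.37, 0.502). Its partner Slc30a6 (probe 11484) was called higher in wild-type cells with E. coli (1.83, 1.21, 0.39 and 0.19; 0.91 ± 0.29, adjusted p = 0.042), and without mouse 1 that mean was 0.60 (0.221). It lost the call without any 1 of 7 mice: wild-type E. coli mice 1 and 2, wild-type LPS mouse 2, MyD88-/- LPS mouse 2 and MyD88-/- E. coli mice 1, 3 and 4. With LPS, Slc30a6 ran 1.86, 0.77, 0.43 and 0.32 in wild-type and -0.28, -1.01 and -1.52 in MyD88-/- mice, on opposite sides of 0, with a genotype difference of -1.78 ± 0.45 (adjusted p = 0.17). The wild-type LPS mean, 0.85 ± 0.29 (adjusted p = 0.0653), passed without wild-type E. coli mouse 1 (0.0412) and was 0.51 without wild-type LPS mouse 1. These gaps differed by dye: with LPS the wild-type and MyD88-/- means were 1.13 and -1.82 on 3 unswapped arrays each, but 0.38 and 0.43 on 4 and 2 swapped arrays. With E. coli the MyD88-/- mean was -0.0059 on unswapped and 1.92 on swapped arrays, and the wild-type call ended on unswapped arrays alone (0.59, 0.378). Named after their values were seen, Slc39a13 rose in 3 responses (0.66, 0.63 and 0.56; not wild-type LPS, 0.29) and Slc39a7 fell in wild-type cells with E. coli (-0.38). The zinc-binding metallothionein Mt2 rose in all 4 responses (0.92 ± 0.17, 0.62 ± 0.17, 1.30 ± 0.17 and 0.78 ± 0.17) and the haem-degrading enzyme Hmox1 fell in all 4 (-1.32 ± 0.18, -0.68 ± 0.18, -1.29 ± 0.18 and -0.59 ± 0.18), both also picked after their values were seen, from 9 tested genes of iron and metal handling.

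In wild-type cells the largest rise of any tested carrier was that of mitoferrin, 6.07-fold with LPS and 7.16-fold with E. coli. Slc25a37 (probe 13496) imports iron into mitochondria for haem and iron-sulfur clusters. Its ratios were 2.94, 2.25, 2.77 and 2.45 in wild-type LPS mice and 1.32, 1.66, 1.31 and 1.85 in MyD88-/- LPS mice. With E. coli they were 2.69, 3.47 and 2.36 in the 3 wild-type mice with a value and 1.45, 1.94, 1.53 and 1.63 in MyD88-/- mice. Every mouse was above 1, and with both stimuli every wild-type mouse lay above every MyD88-/- mouse. The means were 2.60 ± 0.17 (adjusted p = 1.55e-07), 1.53 ± 0.17 (3.21e-05), 2.84 ± 0.20 (1.55e-07) and 1.64 ± 0.17 (1.59e-05), and these calls held under each of 24 alternatives tried for each. The genotype differences of -1.07 ± 0.25 (0.112) and -1.20 ± 0.27 (0.0579) did not pass; the first did without wild-type E. coli mouse 2 (0.0469) and the second without wild-type E. coli mouse 3 (0.0337).

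**Figure D3:**
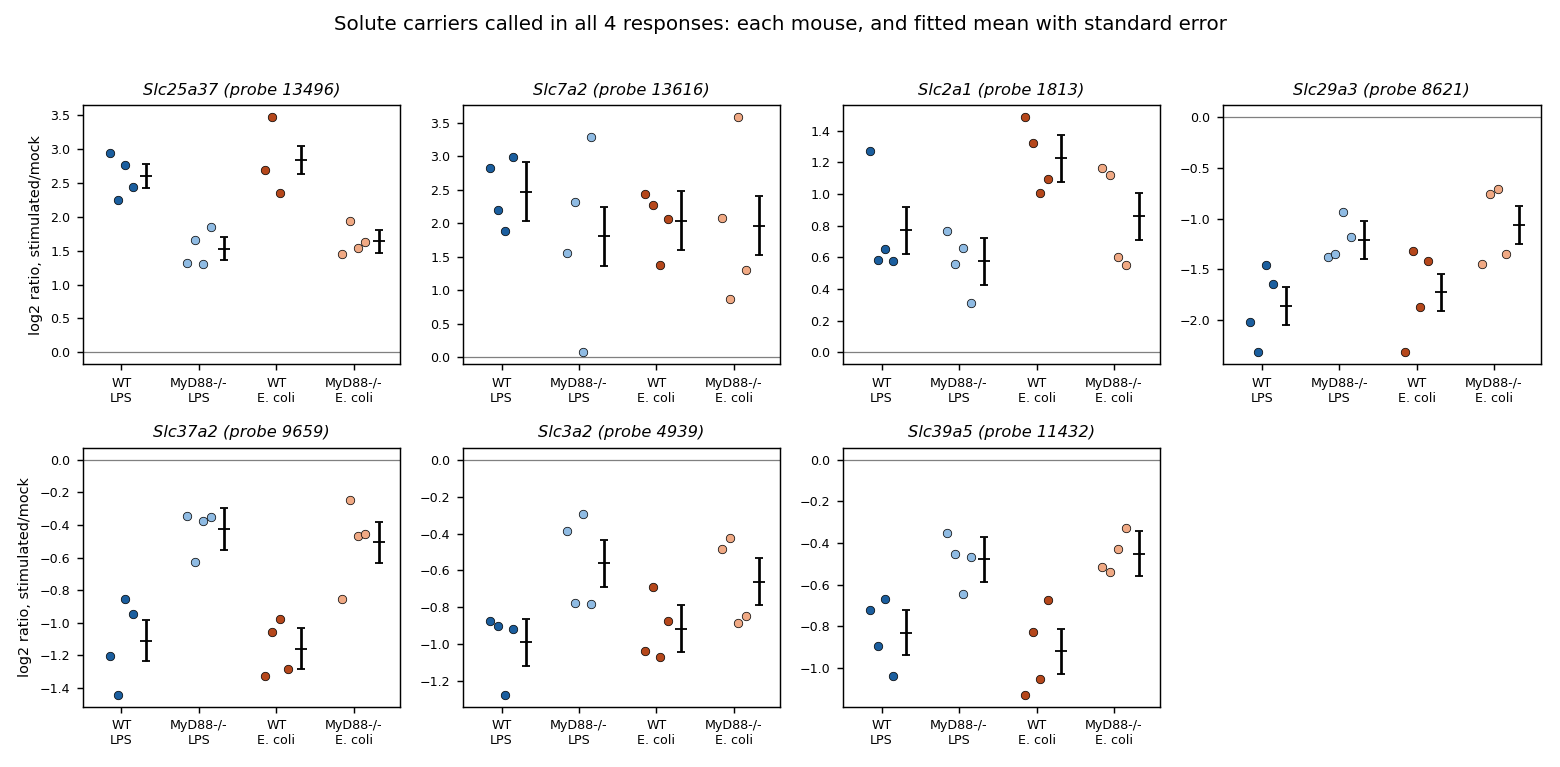
Log2 ratio of each mouse (points) and fitted mean with standard error (bar) for the 7 members called in all 4 responses; each panel has its own y axis and the grey line is 0. Slc25a37, Slc7a2 and Slc2a1 lie above 0 and Slc29a3, Slc37a2, Slc3a2 and Slc39a5 below it in every mouse, and the wild-type and MyD88-/- points of Slc25a37, Slc37a2 and Slc39a5 do not overlap with either stimulus.

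The other mitochondrial carriers that passed mostly fell. Slc25a36 (probe 2836), which carries pyrimidine nucleotides into mitochondria, was the 1 member whose response differed between genotypes by the test. With E. coli the wild-type mice had -2.47, -1.64, -1.82 and -1.11 and the MyD88-/- mice 0.21, 0.067, -0.17 and -1.06; with LPS the wild-type mice had -1.17, -0.41, -0.41 and -0.53 and the MyD88-/- mice 0.059, -0.28, 0.044 and -0.47. The genotypes lay apart with E. coli, by a narrow gap between wild-type mouse 4 and MyD88-/- mouse 4, and overlapped with LPS. The wild-type E. coli mean was -1.76 ± 0.22 (adjusted p = 3.34e-05) against -0.24 ± 0.22 (0.601), a difference of 1.52 ± 0.31 (95% interval 0.86 to 2.19, 0.0325), beside 0.47 ± 0.31 with LPS. The difference lay between 1.29 and 1.56 and was no longer called without wild-type E. coli mouse 1 (0.105), mouse 2 (0.0625) and mouse 3 (0.0687) or MyD88-/- E. coli mouse 1 (0.101), mouse 2 (0.0988) and mouse 3 (0.0838). It also lost the call with the mouse number as a block (0.161), on the 2 E. coli groups alone (0.17) and on unswapped (0.177) or swapped arrays alone (0.264). The wild-type LPS mean, -0.63 ± 0.22 (adjusted p = 0.0639), passed without wild-type E. coli mouse 1 (0.0405) or MyD88-/- E. coli mouse 4 (0.0326). Slc25a17 (probe 6366), a family member of the peroxisome, rose by 0.77 ± 0.18 (adjusted p = 0.00857), 0.80 ± 0.18 (0.01) and 0.73 ± 0.18 (0.00958), with 0.56 ± 0.18 (0.0671) in MyD88-/- E. coli cells, and all 16 of its values were above 0. Its wild-type LPS call ended without mouse 3 (0.0594) of that group, the MyD88-/- LPS call without mouse 4 (0.0786) of that group and its E. coli call in wild-type cells without mouse 1 (0.0582) and mouse 4 (0.0523) of that group, and MyD88-/- E. coli passed without wild-type E. coli mouse 2 (0.0442). A further 5 members of the family, named after their values were seen, fell in wild-type cells alone by the test: Slc25a39 (-0.45) and the ADP/ATP carrier Slc25a5 (-0.42) with LPS, and Slc25a30 (-0.84), Slc25a46 (-0.51) and the ATP-magnesium carrier Slc25a23 (-0.42) with E. coli. Their genotype differences under that stimulus were between 0.097 and 0.38, none called. The ornithine carrier Slc25a2 (probe 2016) passed nowhere, and its MyD88-/- E. coli mean of 0.53 ± 0.28 came from mice at 1.37, 1.25, -0.023 and -0.48.

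The lowest mean of any member, with LPS in wild-type cells, was that of a lysosomal nucleoside transporter. Slc29a3 (probe 8621) encodes ENT3, which lets nucleosides from digested nucleic acids leave the lysosome. Its ratios were -2.03, -2.32, -1.46 and -1.65 in wild-type LPS and -1.38, -1.35, -0.94 and -1.18 in MyD88-/- LPS mice, and, with E. coli, -2.31, -1.32, -1.87 and -1.42 in wild-type and -1.45, -0.75, -0.71 and -1.35 in MyD88-/- mice. All 16 lay below 0, and the genotypes were apart with LPS and overlapped with E. coli. The means were -1.86 ± 0.19 (adjusted p = 3.71e-06), -1.21 ± 0.19 (0.000351), -1.73 ± 0.19 (6.94e-06) and -1.07 ± 0.19 (0.00105), the genotype differences 0.65 ± 0.26 (0.496) and 0.66 ± 0.26 (0.278). On swapped arrays alone the MyD88-/- E. coli value was -0.58 (0.22), while no single mouse ended any of its calls. The plasma membrane nucleoside carrier Slc29a1 (probe 765) passed in none, with means from 0.071 to 0.38. Ctns, the lysosomal cystine exporter, has a symbol outside the naming rule and so was not counted as a member. It was picked from 12 tested partner genes after its values were seen, and fell in all 4 responses (-1.28 ± 0.18, -0.94 ± 0.18, -1.19 ± 0.18 and -1.03 ± 0.18).

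Phosphate sugar exchangers of the endoplasmic reticulum fell as well. Slc37a2 (probe 9659) exchanges glucose-6-phosphate for phosphate and is abundant in macrophages, and Slc37a4 (probe 9051) is the transporter that serves glucose-6-phosphatase. Slc37a2 had -1.20, -1.44, -0.85 and -0.95 in wild-type LPS and -0.34, -0.63, -0.37 and -0.35 in MyD88-/- LPS mice, and, with E. coli, -1.32, -1.06, -0.97 and -1.28 in wild-type and -0.85, -0.25, -0.47 and -0.45 in MyD88-/- mice. Each of the 16 was below 0, and every wild-type value lay below every MyD88-/- value with both stimuli. The means were -1.11 ± 0.13 (adjusted p = 1.41e-05), -0.42 ± 0.13 (0.0447), -1.16 ± 0.13 (8.12e-06) and -0.51 ± 0.13 (0.0154), and the genotype differences 0.69 ± 0.18 (0.173) and 0.65 ± 0.18 (0.109) did not pass. The MyD88-/- LPS call was thin and ended without any 1 of 10 mice (0.0526 to 0.173): its own 4, wild-type LPS mice 1 and 4, MyD88-/- E. coli mouse 3 and mice 2, 3 and 4 of the wild-type E. coli group. The MyD88-/- E. coli call ended without its own mouse 1 (0.0985) and mouse 3 (0.0522). Slc37a4 fell in wild-type cells with LPS (-1.93, -0.90, -0.50 and -1.66; -1.25 ± 0.38, adjusted p = 0.0354), a call lost without mouse 1 (0.163), mouse 2 (0.0682) and mouse 4 (0.127). It had -0.26 ± 0.44, -0.90 ± 0.38 and -0.48 ± 0.38 in the other groups. The first of these joins 1 unswapped array at 2.77 with 3 swapped arrays averaging -0.77, and the last was -0.79 without mouse 4 of that group.

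In each remaining role that had a call, 1 or 2 members passed. Slc16a3 (probe 10875), MCT4, which exports lactate, was above 0 in both E. coli groups (0.62, 0.20, 0.52 and 0.45 in wild-type and 0.32, 0.48, 0.53 and 1.22 in MyD88-/- mice) and passed in MyD88-/- cells (0.64 ± 0.16, adjusted p = 0.0143; wild-type 0.45 ± 0.16, 0.0546). Without MyD88-/- E. coli mouse 4 that call ended (0.1), whereas wild-type E. coli (0.0249) and MyD88-/- LPS (0.0348) passed. Slc16a10 (probe 10370), which carries aromatic amino acids, rose in MyD88-/- cells with LPS (0.45, 0.54, 1.35 and 2.31). The mean was 1.16 ± 0.32 (adjusted p = 0.0293). That call ended without mouse 3 (0.112) and mouse 4 (0.209) and on swapped arrays alone (0.49, 0.519), against 1.38 on unswapped arrays. The swapped arrays lack mouse 4, the highest, so these means differ in mice as well as in dye. Slc15a3 (probe 2105), the lysosomal peptide and histidine carrier, rose in wild-type cells with E. coli (0.46, 2.09, 0.55 and 1.29; 1.10 ± 0.21, adjusted p = 0.00139); its other means were 0.55, 0.37 and 0.52, and those of wild-type LPS (0.023) and MyD88-/- E. coli (0.0421) passed without wild-type E. coli mouse 2. The potassium-chloride cotransporter Slc12a4 (probe 11878) was the ion carrier that passed, with E. coli, at 0.84 ± 0.23 (0.0162) in wild-type and 1.25 ± 0.23 (0.00193) in MyD88-/- cells; the first ended without wild-type E. coli mouse 1 (0.102) and mouse 4 (0.0525). With LPS it had 0.56 ± 0.23 and 0.78 ± 0.26; the second passed without MyD88-/- E. coli mouse 1 (0.0287) and mouse 2 (0.044), the first without MyD88-/- E. coli mouse 1 (0.0486). Slc14a2 (probe 5996), a urea transporter known from kidney, rose in wild-type cells with LPS (1.09, 1.89, 0.53 and 0.45; 0.99 ± 0.23, adjusted p = 0.00774) but not without mouse 2 (0.064). Slc10a7 (probe 11797), of the bile acid carrier family, fell in wild-type cells with E. coli (-0.49, -0.90, -0.47 and -0.81; -0.67 ± 0.15, 0.00525), where the MyD88-/- mice had -0.10, 0.23, -0.17 and -0.18.

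The renal urate transporter gave the widest gap between the mean responses of the genotypes. Slc22a12 (probe 60) encodes URAT1, known for urate reabsorption in kidney. In wild-type mice its ratios were 4.91, 3.15, 0.60 and 0.83 with LPS and 3.31, 2.57, 1.16 and 2.51 with E. coli, and in MyD88-/- mice -0.73, 0.11, 0.55 and 0.49 with LPS and -0.075, -0.03, -0.066 and -0.096 with E. coli. The genotypes did not overlap with either stimulus, and the wild-type LPS mice split into a high and a low pair. With LPS the genotypes were separated narrowly, by wild-type mouse 3 (0.60) and MyD88-/- mouse 3 (0.55). It rose in wild-type cells (2.37 ± 0.52, adjusted p = 0.0052; 2.39 ± 0.52, 0.00404) and not in MyD88-/- cells (0.10 ± 0.52 and -0.067 ± 0.52), while the genotype differences of -2.27 ± 0.74 (0.344; 95% interval -3.84 to -0.69) and -2.45 ± 0.74 (0.149; -4.03 to -0.88) did not pass; fitted on the E. coli groups alone the second did (0.039). The wild-type LPS mean was 1.53 without mouse 1 (adjusted p = 0.0332) and 0.95 on swapped arrays alone (0.369), against 2.80 as the plain mean of the 4 unswapped arrays.

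Between genotypes, 0 of 91 members differed with LPS (0.287% of all probes did; 13 members and 653 probes had an unadjusted p under 0.05) and 1, Slc25a36, with E. coli (0.751%; 16 members and 974 probes). With LPS, all mice of one genotype lay above all mice of the other for 10 members, 11% of the 91, against 6.68% of all probes tested, and with E. coli for 9, 9.89%, against 9.08%. With both stimuli and in the same direction this held for 4 members, 4.4%, against 1.8% of all probes. Slc37a2 and Slc39a5 were higher in MyD88-/- mice, and Slc22a12 and Slc25a37 lower. These counts carry no test and the 2 stimuli may share mock RNA. With LPS alone the list added Slc1a5, Slc29a3, Slc30a1 and Slc3a2, higher in MyD88-/- mice, and Slc11a2 and Slc30a6, lower. With E. coli alone it added Slc10a7, Slc25a36 and Slc38a10 (named after its values were seen, genotype difference 0.73 ± 0.24), higher. Lower were Slc2a5 and Slc4a4 (probe 12819, likewise, -0.63 ± 0.25). On probe 6847, the other tested probe of Slc4a4, the genotypes overlapped.

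**Figure D4:**
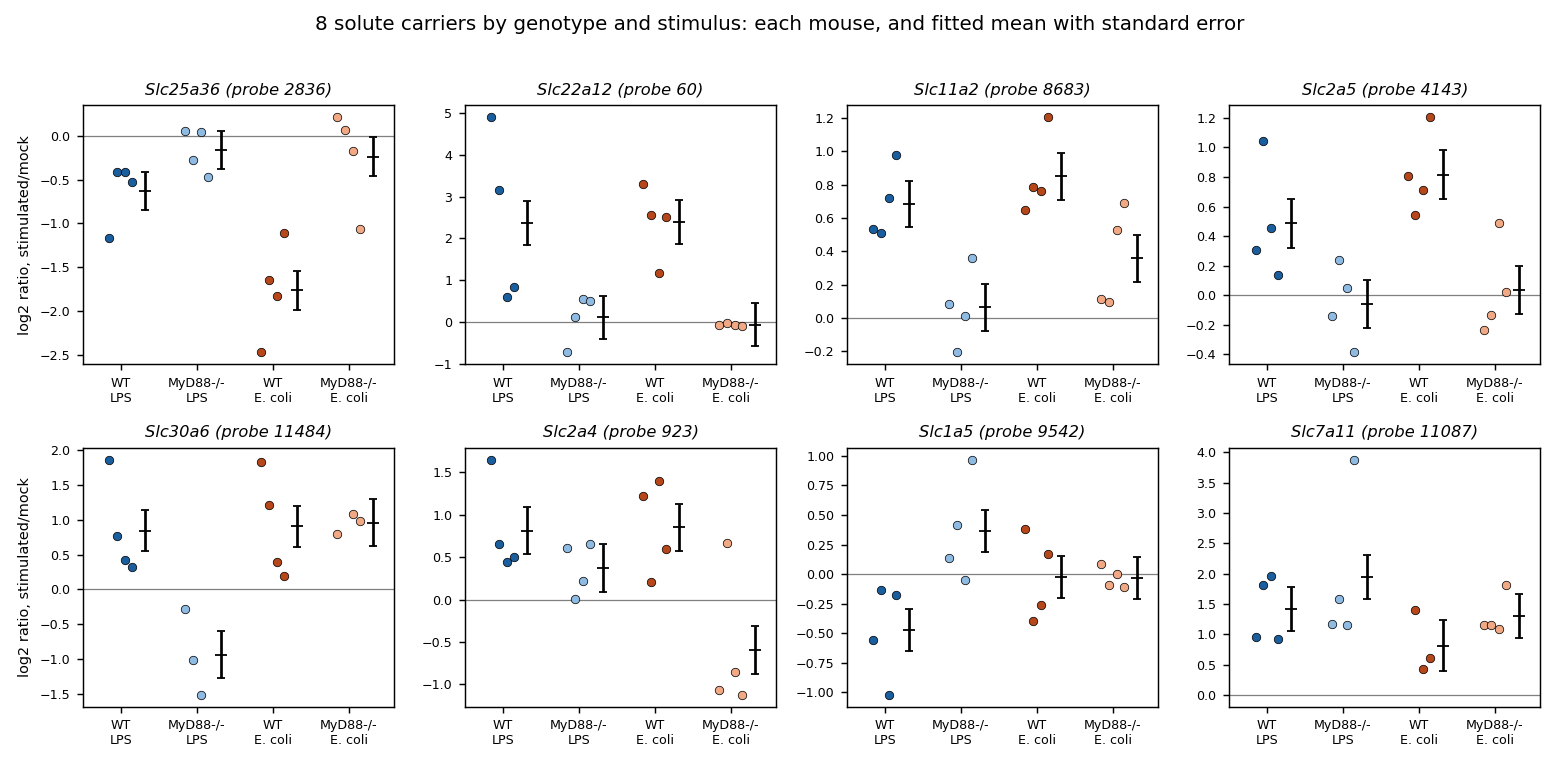
Log2 ratio of each mouse (points) and fitted mean with standard error (bar) for 8 members, by genotype and stimulus; each panel has its own y axis and the grey line is 0. Slc22a12 lies above 0 in every wild-type mouse. Its MyD88-/- mice lie near 0 with E. coli but spread to both sides of 0 with LPS, close to the lowest wild-type mouse. Slc25a36 is lowest in wild-type E. coli mice, and 1 mouse stands apart in Slc7a11 (MyD88-/- LPS, 3.88) and Slc2a4 (MyD88-/- E. coli, 0.67).

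No member's change differed between live bacteria and LPS by the test, which does not show that the changes were alike. In limma's fit 0 members, and 0% of all probes, differed between E. coli and LPS in wild-type cells (3 members and 297 probes at an unadjusted p under 0.05), 0 and 0% in MyD88-/- cells (3 and 177), and 0 and 0% in the interaction of genotype and stimulus (8 and 219). The largest of these differences by p were those of Slc25a36 in wild-type cells, -1.13 ± 0.31 (95% interval -1.80 to -0.47), and of Slc30a6 in MyD88-/- cells, 1.89 ± 0.48 (0.86 to 2.92), with adjusted p of 0.964 and 1; the second, as given with the zinc transporters, sets arrays side by side whose dyes differ by at least as much. The median standard error of a difference between stimuli was 0.29 over all probes tested. Differences as large as the -1.13 and 1.89 above did not pass, so changes of that size or smaller could go unseen.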

How the data were processed

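Wild-type and MyD88-/- macrophages were measured on 2-colour spotted arrays, scanned with a GenePix scanner, quantified with GenePix Pro and analysed in BASE and GeneSpring, per the labels; background correction, normalization, spot filter and ratio direction are not given in the sources used here. The authors deposited log2 ratios, 1 column per array, and 0 columns were left unmapped. Values at the floor of log2(0.01) (70 of 3603 member values, 1.94%) were taken as missing, and the arrays of a mouse were averaged. The number of arrays limits the precision, with a median standard error of a response near 0.20. limma (version 3.58.1, R 4.3.3; lmFit and eBayes) was fitted to all 4 groups at once, with p-values adjusted over the 7325 probes with at least 3 mice in every group. The fit was tested on simulated data. Mice are numbered 1 to 4 within a group per the labels, which do not say whether a number is 1 animal under both stimuli; the fit took all as separate.

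Probe names came from the platform annotation, in which 196 member probes matched a current RefSeq gene by Entrez ID, with 0 symbols changed; 2 probes with several symbols were left out. Members, gene lists and tests were chosen with earlier results of these data known. Members were named by rule: the 6 largest called changes in each direction of each response among members of 1 sign in every mouse, the smallest p-values of each difference, and a list of known macrophage carriers; others are said to be chosen after their values were seen. Deviations of same-numbered mice had r = -0.057 to 0.14 between stimuli and -0.041 to 0.19 between genotypes, not above 0.1 in every pair, so no block was used. Alternatives covered the filter, floor, centring, scaling, dye, block, fold threshold, separate fits and leaving out each mouse.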

Additional observations from a re-analysis of the deposited data

Results flagged for a closer look

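In 118 groups of 4 mice of the named members, 12 (10.2%) had 1 mouse whose gap to its nearest fellow exceeded Dixon's critical value for 4 values, where chance gives about 1 in 20. Among amino acid transporters these were Slc7a11 in MyD88-/- LPS mouse 4 (3.88; the others 1.15 to 1.59) and MyD88-/- E. coli mouse 4 (1.81; 1.09 to 1.16), Slc3a2 in wild-type LPS mouse 3 (-1.28; -0.92 to -0.87) and Slc43a1 in wild-type E. coli mouse 1 (-0.67; -0.22 to -0.13). Among sugar and phosphate sugar carriers they were Slc2a1 in wild-type LPS mouse 1 (1.27; 0.58 to 0.65), Slc2a4 in MyD88-/- E. coli mouse 2 (0.67; -1.12 to -0.85) and Slc37a2 in MyD88-/- LPS mouse 2 (-0.63; -0.37 to -0.34). Among zinc transporters they were Slc30a1 in wild-type LPS mouse 3 (-1.79; -0.80 to -0.68) and Slc30a5 in wild-type LPS mouse 2 (-2.62; -0.55 to -0.23). The rest were Slc14a2 in wild-type E. coli mouse 3 (-0.19; 0.16 to 0.20), Slc15a3 in wild-type LPS mouse 1 (0.95; 0.39 to 0.43) and Slc25a36 in wild-type LPS mouse 1 (-1.17; -0.53 to -0.41).

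Slc25a36 is listed here also because its E. coli response differed between genotypes by limma's test of the difference, by 1.52 on the log2 scale (adjusted p = 0.0325).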

How the results depend on the processing

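Of 3860 alternative values of 152 named results, 3636 stayed on the same side of the threshold, 176 lost the call and 48 gained one. Of called values 0 turned sign, while 35 uncalled values changed sign and are counted within these classes. Of 59 calls, 22 held under every alternative in which they were tested and 32 without any 1 mouse. Fitting each comparison alone ended 31 of the 59; of 52 that could be fitted on swapped arrays alone 18 ended and 10 moved by over 1.5 times, and on unswapped arrays 9 and 4 of 52. Of 247 alternative counts of called members, 220 stayed within 1.5 times. With LPS, 19 calls in wild-type cells became 9 with each response fitted alone, 11 on swapped arrays alone (chosen after seeing the data, with 60 members tested) and 8 at 2-fold or more; 14 in MyD88-/- cells became 8 with no filter beyond 2 mice, 3 fitted alone, 2 on swapped arrays and 6 at 2-fold. With E. coli, 24 wild-type calls became 13 fitted alone and 8 at 2-fold, and 12 MyD88-/- calls 6 and 5. The single genotype call with E. coli became 0 with no filter beyond 2 mice, 0 on unswapped arrays, 0 on swapped arrays, 2 with arrays centred and scaled and 3 where dye entered as a term and the mouse as a random block; fitted alone it stayed at 1, but the member was Slc22a12 (lower in MyD88-/- cells) in place of Slc25a36. Leaving out 1 mouse gave 13 to 21, 7 to 15, 14 to 26 and 7 to 13 calls in the 4 responses, 0 to 1 in each genotype difference and 0 in the stimulus differences and the interaction. The cause was not tested, except that fitting alone, leaving out mice and using 1 dye leave fewer values by construction.

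With the mouse number as a block the genotype call with E. coli became 0; same-numbered mice of the 2 genotypes had r = -0.041 to 0.19, and whether a number marks a shared day is not stated. The limits are 4 mice a group, 105 members too rarely measured to test, ratios that hold no level, and an unstated normalization.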

Other observations

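Members below the filter can still be read group by group where 3 mice have a value. The nucleoside carrier Slc29a2 had 1.25, 1.36 and 1.04 in 3 wild-type mice with LPS and a value on 5 arrays in all. The mitochondrial carrier Slc25a35 had 1.15, 1.89, -0.25 and 2.54 in MyD88-/- mice with E. coli (17 arrays), and the pseudogene Slc39a1-ps 1.14, 0.93 and 1.26 in 3 of them (12 arrays). These 3 were picked for their values among members measured in too few mice, and no test is given.

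Slco3a1, an organic anion transporter, had a value on 11 arrays, and each of the 9 measured mice was above 0: 2.74 and 1.46 in wild-type and 1.23 and 0.68 in MyD88-/- mice with LPS, 3.61 and 2.55 in wild-type and 1.85, 4.26 and 0.93 in MyD88-/- mice with E. coli. Its MyD88-/- E. coli mean of 2.35 ± 0.59 is likewise given with no test, and the other groups had 2 mice each. Other carriers known in macrophages were scarcely measured: the lactate carrier Slc16a1 had a value on 4 arrays, the phosphate importer Slc20a1 on 9, the nucleoside carrier Slc28a2 on 11 and the copper carrier Slc31a2 on 1.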
